A study of Mus musculus with 12 samples.

Results

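S100 genes encode small calcium-binding proteins, and 8 of them, S100a8, S100a9, S100a4, S100a6, S100a10, S100a11, S100a13 and S100a1, were followed in leukemia cells taken from 3 kinds of host mice. They are 8 of the 55401 genes of the expression table and were taken by name. The list was chosen by name with the levels in these libraries known, and S100a8 and S100a9 were singled out by their host differences, so the differences of the 8 genes between hosts are given as a description. Where a call of a member by the fit over all genes is mentioned, it only places the member among all genes, and nothing rests on it. Tests are given for genes outside the list.

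The cells were mouse bone marrow progenitors transduced with MLL-AF9, a fusion oncogene that causes acute myeloid leukemia (AML), together with GFP. After repeated passage from mouse to mouse, they were transplanted into C57BL/6 (WT), Rag2-/- or NSG hosts without irradiation. GFP+ leukemia cells were collected from the bone marrow of moribund female adult mice, and the libraries number 12, with 4 per host, labelled as biological replicates. All 3 groups thus carry the same MLL-AF9 and GFP transgenes and differ in the host. Rag2-/- mice have no mature B or T lymphocytes. NSG mice, of another strain background, have no NK cells either. The question was whether the leukemia cells express different genes in hosts with different immune cells. Poly-A-selected RNA was sequenced, and the deposited unit is TPM, a transcript abundance that corrects for gene length and adds up to the same total in every library, so levels of different genes can be set side by side on it.

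S100 proteins change shape when they bind calcium and then take hold of target proteins. S100A8 and S100A9 form the heterodimer calprotectin, a major cytosolic protein of neutrophils and monocytes. Released from the cell, it sequesters zinc and manganese from microbes and acts as an alarmin, a danger signal read by Toll-like receptor 4 (TLR4) and by the receptor for advanced glycation end products (AGER). In the myeloid lineage, both genes are switched on as granulocytes mature and are low in progenitors. The other members act mostly inside the cell, as partners of annexins and of the cytoskeleton.

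All 8 genes lie on chromosome 3 (coordinates on GRCm38, the mm10 genome, from GENCODE M21). S100a1 (ENSMUSG00000044080, chr3:90511034-90514392, minus strand), S100a13 (ENSMUSG00000042312, chr3:90514435-90524581, plus), S100a4 (ENSMUSG00000001020, chr3:90603771-90606045, plus), S100a6 (ENSMUSG00000001025, chr3:90612882-90624181, plus), S100a8 (ENSMUSG00000056054, chr3:90668978-90670035, plus) and S100a9 (ENSMUSG00000056071, chr3:90692632-90695721, minus) sit within 185 kb that hold 16 genes, 12 of them S100 genes. S100a8 and S100a9 point towards each other, with 22596 bases between them. S100a1 and S100a13 start back to back, with 42 bases between their starts. S100a11 (ENSMUSG00000027907, chr3:93520488-93526287, plus) and S100a10 (ENSMUSG00000041959, chr3:93555080-93564643, plus) lie 2.82 Mb further on, with 28792 bases between them.

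The 250 bases before the start of transcription are shown for the alarmin pair, whose levels went together, for S100a4, which was listed at 0, and for S100a11, the most abundant member (RefSeq, GRCm38.p6, each on the gene's own strand). Capitals mark matches to 4 short motifs that were searched on both strands: TTGCNNAA for C/EBP factors, GAGGAA for PU.1, TTCNNNGAA for STAT factors and TATAAA for the TATA box. The windows are chr3:90668821-90669070 (plus strand) for S100a8, chr3:90695722-90695971 (minus) for S100a9, chr3:90603520-90603769 (plus) for S100a4 and chr3:93520246-93520495 (plus) for S100a11.
S100a8: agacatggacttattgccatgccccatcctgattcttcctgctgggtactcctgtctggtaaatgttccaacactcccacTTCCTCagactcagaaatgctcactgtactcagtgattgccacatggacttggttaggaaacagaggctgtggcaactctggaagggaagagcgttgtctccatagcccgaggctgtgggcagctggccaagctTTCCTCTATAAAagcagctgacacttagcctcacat
S100a9: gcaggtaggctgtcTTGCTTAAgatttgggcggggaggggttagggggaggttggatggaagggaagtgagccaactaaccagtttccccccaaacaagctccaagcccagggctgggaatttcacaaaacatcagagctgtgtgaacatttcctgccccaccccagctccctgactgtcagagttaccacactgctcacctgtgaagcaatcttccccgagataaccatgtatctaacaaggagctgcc
S100a4: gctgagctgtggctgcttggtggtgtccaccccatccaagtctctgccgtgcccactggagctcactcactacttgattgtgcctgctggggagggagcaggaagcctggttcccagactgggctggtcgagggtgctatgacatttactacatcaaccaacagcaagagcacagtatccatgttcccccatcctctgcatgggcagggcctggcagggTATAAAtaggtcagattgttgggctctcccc
S100a11: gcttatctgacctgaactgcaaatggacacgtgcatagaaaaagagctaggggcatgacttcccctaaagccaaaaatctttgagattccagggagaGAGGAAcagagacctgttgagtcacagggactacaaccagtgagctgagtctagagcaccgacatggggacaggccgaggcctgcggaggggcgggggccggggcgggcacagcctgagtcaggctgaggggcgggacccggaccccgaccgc

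The search covered 300 bases, 50 of them past the start, in the 7 members for which the RefSeq table holds a promoter (S100a10 is not among them). Positions count back from the last base before the start, which is -1. S100a8 held TATAAA at -30 and GAGGAA on the minus strand at -170 and -36, where it directly adjoins the TATA box without overlapping it. S100a9 held TTGCNNAA at -236, the only match to this motif among the 7 members, and TATAAA at the annotated start itself, just past the printed bases. S100a4 held TATAAA at -31 and GAGGAA 19 bases past the start, and S100a11 held GAGGAA at -153. S100a6, S100a13 and S100a1 held none of the 4 motifs. Thus TTGCNNAA was in 1, GAGGAA in 3, TATAAA in 3 and TTCNNNGAA in 0 of the 7 windows. Among all 32851 mouse promoters of this length, these motifs occurred in 10.8%, 28.3%, 13.6% and 8.30%, in that order. A match is a run of letters and was not shown to be bound, and the absence of a match says nothing about a factor.

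Before the members, the state of the libraries is given. Reads per gene, worked out from the spacing of the low TPM values, came to 16.0 to 27.1 (in units of 1000000 reads per library) in WT, 17.4 to 42.8 in Rag2-/- and 19.0 to 33.1 in NSG. No 2 libraries held the same values. Hoxa9 and Meis1, targets of MLL fusions, averaged 208 and 55.2 TPM in WT, 224 and 60.5 TPM in Rag2-/- and 208 and 56.9 TPM in NSG libraries, which checks the label of the cells. The B cell gene Ms4a1 and the T cell gene Cd3e were at 0 in all libraries. Each was the only such gene of its marker list, of 8 B cell and 10 T and NK cell genes. The B cell list summed to 180.7 to 232.2 TPM in WT, 139.7 to 210.5 TPM in Rag2-/- and 125.5 to 221.5 TPM in NSG libraries. Cd79a and Cd79b averaged 1 TPM or more and were not called (log2 differences of -0.09 and -0.53 between Rag2-/- and WT). Of the immunoglobulin genes, Ighm averaged 183, 164 and 177 TPM in WT, Rag2-/- and NSG. Igkc was at 0.745 to 18.0 TPM in WT against at most 0.295 TPM in Rag2-/- and 0.676 TPM in NSG libraries, and was called lower in Rag2-/- than in WT by limma (log2 difference -2.75 ± 0.60, SE, adjusted p = 0.0348). Over the 15026 genes that averaged 1 TPM or more, limma (a linear model per gene) was fitted, and a gene was called where its log2 fold change passed 0.5 in size with a Benjamini-Hochberg adjusted p-value under 0.05. In Rag2-/- libraries, 172 genes (1.14%) were higher and 49 (0.326%) lower than in WT, 1.47% in all. Against NSG, 29 (0.193%) were higher and 3 (0.02%) lower, 0.213% in all. Between NSG and WT, 0 genes (0%) were called by limma, although 1377 had an unadjusted p-value below 0.05, and voom on the recovered reads called 1. One library, Rag2-/- replicate 4, had the lowest S100a8 and S100a9 levels of the Rag2-/- libraries and is followed through the results. The 32 genes called against NSG in either direction became 90 without it, 87 without NSG replicate 3, 4 to 6 without Rag2-/- replicate 1, 2 or 3, 5 to 8 without NSG replicate 1, 2 or 4, and 12 to 20 without WT replicate 1, 3 or 4. The 221 called against WT became 47, 120 and 140 without WT replicate 2, 3 and 4 and 53 and 51 without Rag2-/- replicate 2 and 3.

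S100a8 and S100a9, the alarmin pair, were at lower levels in cells from WT and NSG hosts than in cells from Rag2-/- hosts. S100a8 was at 39.8, 24.8, 44.4 and 39.0 TPM in the 4 WT libraries. In the Rag2-/- libraries, its level was 425, 360, 429 and 107 TPM. In the NSG libraries, it was 44.6, 53.1, 52.7 and 65.1 TPM. All Rag2-/- libraries lay above every other library for S100a8, and all NSG libraries above every WT library, as held for 2.21% of all genes between NSG and WT. The means were 37.0 ± 8.45 TPM in WT, 330 ± 152 TPM in Rag2-/- and 53.9 ± 8.46 TPM in NSG (SD, n = 4 each).

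S100a9, the partner subunit, was at 21.9, 21.6, 25.0 and 31.2 TPM in WT libraries. It reached 701, 554, 494 and 148 TPM in Rag2-/- libraries. In NSG libraries, it was at 34.1, 22.8, 17.3 and 37.9 TPM. As with S100a8, the Rag2-/- libraries lay above all others and replicate 4 was the lowest of them, while WT and NSG libraries overlapped. The means were 24.9 ± 4.44, 474 ± 234 and 28.0 ± 9.61 TPM in WT, Rag2-/- and NSG (SD, n = 4 each). These levels rest on 53 to 102 reads in WT, 930 to 3648 in Rag2-/- and 51 to 192 in NSG libraries for S100a9, and on 87 to 241, 893 to 2942 and 172 to 439 reads for S100a8.

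On the log2(TPM + 1) scale, S100a9 was higher in Rag2-/- than in WT libraries by 4.00 ± 0.40 (SE of the fit), a 16.1-fold difference, and S100a8 by 2.97 ± 0.37, or 7.82-fold. Against NSG libraries, the log2 differences were 3.89 ± 0.40 for S100a9 and 2.42 ± 0.37 for S100a8. Ranked by log2 fold change among the 15026 genes, S100a9 was 3rd in both comparisons, and S100a8 was 9th against WT and 7th against NSG. Both comparisons use the same Rag2-/- libraries. NSG and WT libraries differed by 0.11 ± 0.40 for S100a9 and by 0.55 ± 0.37 for S100a8.

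Both genes were among the genes called higher in Rag2-/- libraries in both comparisons, 2 of the 7 members tested, where 1.14% of all genes were called against WT and 0.193% against NSG. S100a4 did not pass the filter on low values, and the other 5 members were called in no comparison, and 0 of 7 were called between NSG and WT. These calls describe genes that were listed for their values. The libraries of S100a8 and S100a9 did not overlap between Rag2-/- and WT, where 10.2% of all genes were higher without overlap, nor between Rag2-/- and NSG, where 4.34% were. Without Rag2-/- replicate 4, the difference from WT was 4.49 for S100a9 and 3.44 for S100a8. The call of S100a8 against NSG was lost when WT replicate 4, any of Rag2-/- replicates 1, 2 and 3, or NSG replicate 1, 2 or 4 was left out, with differences from 2.23 to 2.51 in these fits, and under 4 of 10 other settings.

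**Figure D1:**
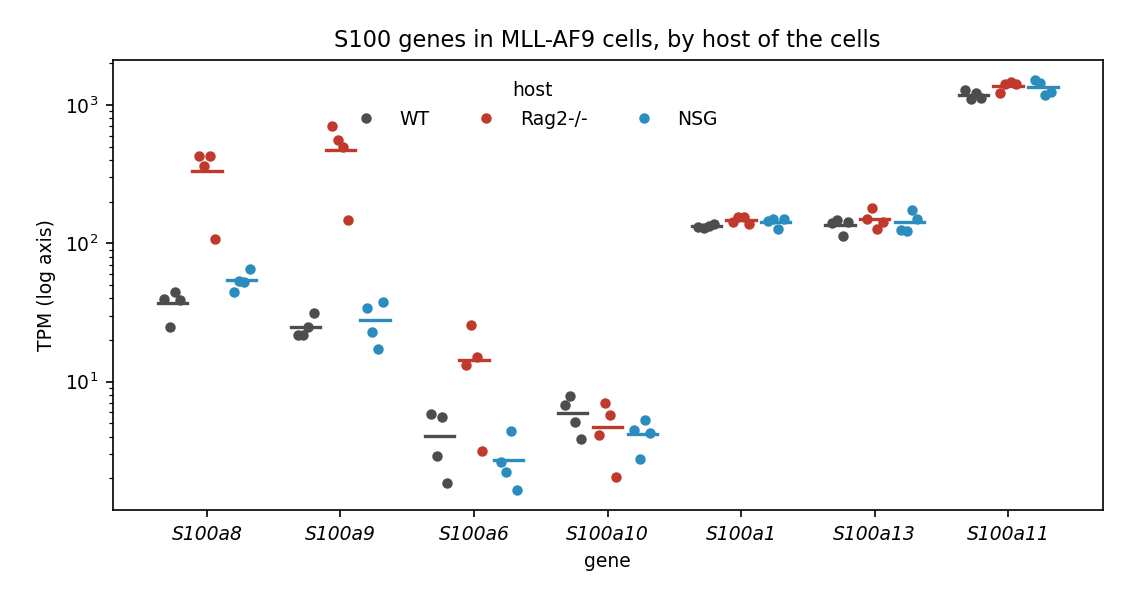
Level in TPM (log axis) of the 7 members above 0 in each of the 12 libraries, with 4 points per host (WT, Rag2-/-, NSG) and a line at the host's mean. S100a8 and S100a9 were at 107 to 701 TPM in the Rag2-/- libraries and at 17.3 to 65.1 TPM in all others, while S100a1, S100a13 and S100a11 stayed in narrow bands and S100a4, at 0 in all libraries, is not drawn.

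The balance within the pair also differed between hosts. The ratio of S100a9 to S100a8, as TPM over TPM in each library, was 0.551, 0.871, 0.563 and 0.800 in WT. In Rag2-/- libraries, it was 1.65, 1.54, 1.15 and 1.38. In NSG libraries, it was 0.765, 0.429, 0.328 and 0.582. In TPM, S100a9 was thus the higher of the pair in all 4 Rag2-/- libraries and the lower in all 8 others. TPM divides reads by exon length, which is 522 bases for S100a9 and 694 bases for S100a8. In reads, the Rag2-/- libraries held 3648, 1841, 1262 and 930 of S100a9 and 2942, 1590, 1458 and 893 of S100a8. Which gene is higher in replicate 3 thus rests on these lengths, whereas the difference in ratio between hosts does not. The means of the ratio were 0.696 ± 0.164, 1.43 ± 0.216 and 0.526 ± 0.191 (SD, n = 4 each). Rag2-/- replicate 4, with the lowest level of both genes among its group, had a ratio of 1.38, within the range of the other 3. The ratio is built from the values that the choice of genes rested on, so it was not tested.

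**Figure D2:**
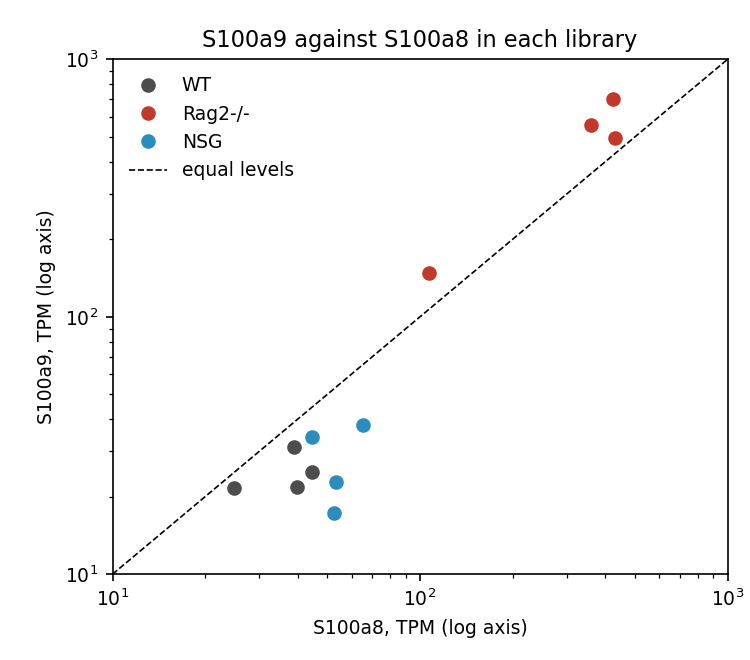
S100a9 against S100a8 in each of the 12 libraries, both in TPM on log axes, coloured by host, with a dashed line where both levels are equal. The 4 Rag2-/- libraries lie above the line, with ratios of 1.15 to 1.65, and the 8 WT and NSG libraries below it, with ratios of 0.328 to 0.871.

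S100a6 (calcyclin), a binding partner of the calcyclin-binding protein CACYBP and of annexins, had the next largest difference. Its levels were low, at 5.83, 2.90, 5.52 and 1.86 TPM in WT libraries. In Rag2-/- libraries, S100a6 was at 13.2, 25.8, 15.1 and 3.16 TPM. In NSG libraries, it was at 2.63, 2.21, 4.39 and 1.66 TPM. Rag2-/- replicates 1, 2 and 3 lay above every WT and NSG library, and replicate 4 lay within their range. The log2 difference was 1.42 ± 0.49 against WT and 1.81 ± 0.49 against NSG, ranks 84 and 23 among all genes tested, and it was not called in either comparison. Without Rag2-/- replicate 4, these differences were 1.96 and 2.35 and were called, the only one of 12 libraries whose omission did so. S100a6 rests on 12 to 59 reads in WT, 52 to 225 in Rag2-/- and 18 to 34 in NSG libraries, and its coefficient of variation within a host, 43.5% to 64.9%, was the widest of the members in WT, Rag2-/- and NSG alike.

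S100a10 (p11), which joins annexin A2 in a complex that holds membrane proteins at the cell surface, was also scarce. It was at 6.76, 7.85, 5.07 and 3.84 TPM in WT, at 4.14, 7.00, 5.73 and 2.06 TPM in Rag2-/- and at 4.45, 2.77, 5.25 and 4.25 TPM in NSG libraries. The 3 hosts overlapped. S100a10 was the only tested member with a negative log2 difference between Rag2-/- and WT, -0.31 ± 0.29, with 0.08 ± 0.29 against NSG, neither called, and 20 to 54 reads per library bound the precision of these values.

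S100a11 (calgizzarin), the partner of annexin A1, was the most abundant member in every library. It was at 1289, 1098, 1211 and 1114 TPM in WT libraries. The Rag2-/- libraries held 1211, 1424, 1475 and 1411 TPM of S100a11. The NSG libraries held 1504, 1443, 1185 and 1237 TPM. The hosts overlapped, and the means were 1178 ± 89.0, 1380 ± 116 and 1342 ± 155 TPM (SD, n = 4 each). Its log2 differences were 0.23 ± 0.09 between Rag2-/- and WT, 0.04 ± 0.09 between Rag2-/- and NSG and 0.18 ± 0.09 between NSG and WT, none of them called.

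S100a1, best known as a regulator of calcium handling in muscle, and S100a13, which takes part in the export of FGF1 and interleukin-1 alpha from cells, were near each other in level in all hosts. S100a1 was at 130, 129, 134 and 137 TPM in WT, at 142, 155, 156 and 137 TPM in Rag2-/- and at 145, 149, 127 and 149 TPM in NSG libraries. S100a13 was at 141, 148, 114 and 142 TPM in WT, at 149, 179, 126 and 141 TPM in Rag2-/- and at 124, 123, 175 and 151 TPM in NSG libraries. The hosts overlapped for both genes. The ratio of S100a1 to S100a13, the pair that starts back to back, averaged 0.985 ± 0.133 in WT, 1.00 ± 0.158 in Rag2-/- and 1.02 ± 0.219 in NSG libraries (SD, n = 4 each), with single libraries from 0.729 to 1.23. Between Rag2-/- and WT, the log2 difference was 0.15 ± 0.06 for S100a1 and 0.13 ± 0.13 for S100a13. S100a1 varied least within hosts, with a coefficient of variation of 2.75% in WT, 6.47% in Rag2-/- and 7.28% in NSG.

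S100a4 (metastasin), a partner of non-muscle myosin IIA, was listed at 0 TPM in all 12 libraries and was therefore not tested. With the reads recovered from TPM, 3 reads on S100a4 would give 0.427 to 1.11 TPM, depending on the library, so a level up to this size could not have been told from 0 (counting error only). Of the 584 exon bases of S100a4 in GENCODE M21, 302 are shared with Gm42674 on the same strand, which was also at 0 in every library, and 282 are not shared with another gene. The other 7 members share no exon base with another gene. Of 79 ribosomal protein genes, which every cell uses, 1 was also listed at 0 in all libraries, so the entry for S100a4 is given only as listed.

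**Figure D3:**
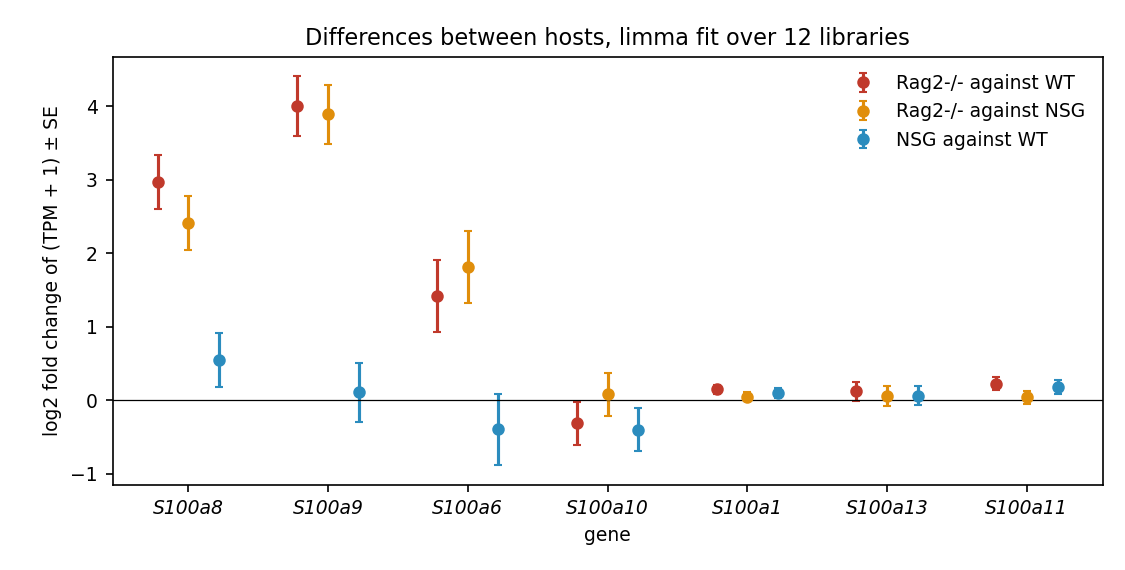
Log2 fold change of (TPM + 1) with its SE from the limma fit over 12 libraries, for the 7 members tested and the 3 comparisons between hosts. S100a9 (4.00 and 3.89) and S100a8 (2.97 and 2.42) were highest in the comparisons of Rag2-/- with WT and with NSG, S100a6 followed with wider errors, and S100a10, S100a1, S100a13 and S100a11 lay between -0.40 and 0.23.

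Over the members together, S100a11 dominated in WT and NSG and the alarmin pair took a large share in Rag2-/-. In WT libraries, the order from high to low was S100a11, S100a13, S100a1, S100a8, S100a9, S100a10, S100a6 and S100a4, and the NSG libraries had the same order. Neighbours whose libraries overlapped in WT were S100a13 and S100a1, S100a8 and S100a9, and S100a10 and S100a6. In NSG, S100a8 lay above S100a9 without overlap. In Rag2-/- libraries, the order was S100a11, S100a9, S100a8, S100a13, S100a1, S100a6, S100a10 and S100a4. There the pair passed S100a13 and S100a1, but its libraries overlapped theirs, because replicate 4 had 107 TPM of S100a8 and 148 TPM of S100a9. S100a11 is among the most abundant 82 genes of the 15026 tested by its mean over all libraries, 1300 TPM, whereas S100a6 and S100a10, at 7.03 and 4.93 TPM, are above only 31.5% and 25.9% of them.

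The sum of the members was 1518 ± 88.6 TPM in WT, 2500 ± 368 TPM in Rag2-/- and 1717 ± 134 TPM in NSG libraries (SD, n = 4 each). S100a8 and S100a9 made up 3.77%, 3.25%, 4.51% and 4.78% of it in the WT libraries. They made up 42.6%, 33.8%, 34.2% and 13.1% in the Rag2-/- libraries. In the NSG libraries, the share was 4.23%, 4.23%, 4.46% and 6.26%. Every Rag2-/- library lay above all others in this share, and replicate 4 was nearest to them. The other members summed to 1456 ± 85.4, 1696 ± 125 and 1635 ± 137 TPM, and the share of S100a11 alone was 77.5% ± 1.50 in WT, 56.4% ± 11.3 in Rag2-/- and 78.0% ± 3.02 in NSG. As the contrast of the pair with the rest, the mean log2(TPM + 1) of S100a8 and S100a9 minus that of the other 5 expressed members was -0.92 ± 0.36 in WT, 2.25 ± 0.69 in Rag2-/- and -0.50 ± 0.38 in NSG. The median log2 difference of the 7 members tested was 0.23 between Rag2-/- and WT and 0.08 between Rag2-/- and NSG, with 0.02 and 0.01 over all genes tested.

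**Figure D4:**
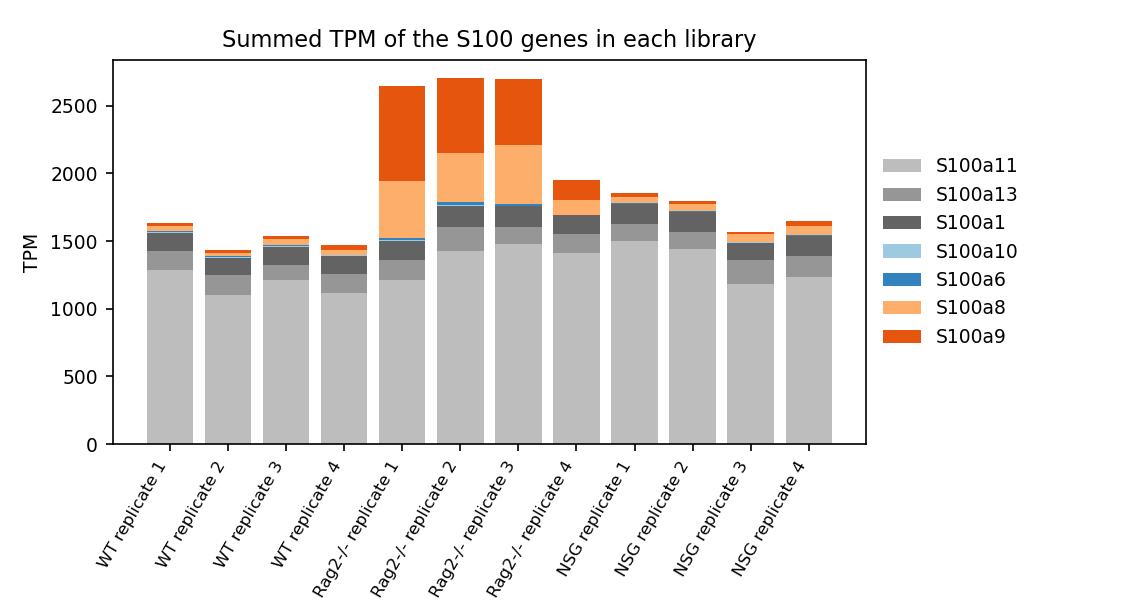
Summed TPM of the members in each of the 12 libraries, stacked by gene. S100a11 is the largest piece of every bar, the sums were 1433 to 1634 TPM in WT, 1950 to 2704 TPM in Rag2-/- and 1567 to 1859 TPM in NSG, and S100a8 with S100a9 form 13.1% to 42.6% of the Rag2-/- bars and 3.25% to 6.26% of the others.

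The rest of the family was nearly silent. The annotation holds 17 S100 genes, and the 9 that are not among the members stayed below 1 TPM in every library, with the highest value at 0.826 TPM (S100g), and 5 of them (S100a16, S100a3, S100a5, S100a7a and S100z) were at 0 in all. Within the 185 kb stretch, the log2 differences between Rag2-/- and WT were 4.00 at S100a9, 2.97 at S100a8 and 1.42 at S100a6. At the far end, they were 0.13 at S100a13 and 0.15 at S100a1, which starts slightly further away. This order is a description of 5 of the 16 genes there, all of them members listed with their values known. S100a4, which lies between S100a6 and S100a13, was listed at 0. Between the outermost members lie 113 other genes, 96 of which were at 0 in all libraries and 4 of which were tested (Gm9774, Ivl, Gm4202 and Tchh). None of these 4 was called by limma in any of the 3 comparisons, with a median log2 difference of -0.01 between Rag2-/- and WT and 0.12 between Rag2-/- and NSG.

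**Figure D5:**
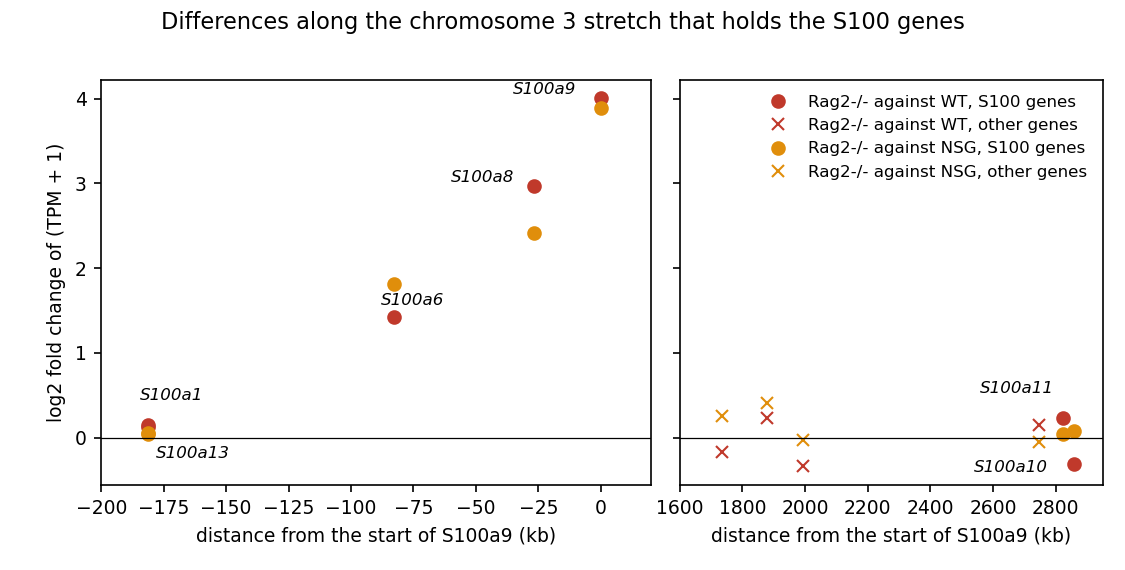
Log2 fold change of (TPM + 1) against the distance from the start of S100a9 in kb, for members (circles) and other tested genes (crosses), in the comparisons of Rag2-/- with WT and with NSG. The left panel holds the 185 kb stretch, where values against WT run from 4.00 at S100a9 to 0.13 at S100a13 and 0.15 at S100a1. The right panel holds the genes further on up to S100a11 and S100a10, where members and other genes lie between -0.34 and 0.41.

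The genes whose pattern was most like that of the pair were read off over the 12 libraries, by Pearson's r of log2(TPM + 1) among the 9437 genes that averaged 10 TPM or more. For S100a9, these were Ngp (r = 0.987), Mmp8 (0.971), Camp (0.971), S100a8 (0.967) and Ltf (0.962). Ngp, Camp and Ltf encode neutrophilic granule protein, the cathelicidin antimicrobial peptide and lactoferrin, and Mmp8 encodes neutrophil collagenase, all proteins of neutrophil granules. For S100a8, they were Ngp (r = 0.979), Tpd52 (0.974), Mmp9 (0.974), Gm14548 (0.969) and S100a9 (0.967). Of these genes, Mmp8, Camp, Ltf, Mmp9 and Gm14548 averaged under 10 TPM in both WT and NSG and were compared only through their Rag2-/- level, so their likeness to the pair was partly built into the choice of genes. Over all 12 libraries, the correlations mostly restate the gap between Rag2-/- and the other hosts, which the points share.

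Within hosts, after subtracting each host's mean, the gene most like S100a8 was again Ngp (r = 0.973), followed by H2-T-ps (0.917), St3gal2 (0.916) and Chil3 (0.910). For S100a9, these were St3gal2 (0.929), Kcnk6 (0.920), H2-T-ps (0.907), Sec13 (0.901) and Rbfox2 (0.900). S100a8 and S100a9 correlated with each other within hosts at r = 0.828 and ranked only 17th and 19th in each other's lists. The low library Rag2-/- replicate 4 weighs on these within-host values, since it had the lowest level of S100a8 and S100a9 and of Ngp (79.0 TPM, against 205 to 301 TPM in the other Rag2-/- libraries).

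Neutrophil genes are the setting in which S100a8 and S100a9 are usually found, and 13 of them were listed, though with earlier results of these data known. Of these 13, all tested, 11 were higher in Rag2-/- than in WT libraries and 6 higher than in NSG libraries by limma, where 1.14% and 0.193% of all genes were, none was lower, and 0 differed between NSG and WT, where 4 had an unadjusted p-value below 0.05. Their median log2 difference was 1.51 against WT and 1.40 against NSG, with 0.02 and 0.01 over all genes tested. Ngp was at 15.5, 11.2, 19.7 and 19.4 TPM in WT, at 301, 205, 246 and 79.0 TPM in Rag2-/- and at 14.0, 17.6, 15.5 and 18.8 TPM in NSG libraries. It was higher in Rag2-/- by 3.46 ± 0.33 against WT (limma, adjusted p = 0.00242) and by 3.43 ± 0.33 against NSG (adjusted p = 0.00116).

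Also called against both hosts were Ltf (log2 differences of 3.23 against WT and 4.10 against NSG), Camp (3.07 and 2.62), Retnlg (4.11 and 5.26), Mmp8 (2.76 and 2.83) and Mmp9 (3.31 and 2.27). With each of the 12 libraries left out in turn, the call against NSG held 12 times for Ltf and Retnlg. It held 7 times for Camp and Mmp8 and 4 times for Mmp9. Ltf averaged 1.93 TPM in WT and 0.597 TPM in NSG libraries. Ltf, Retnlg and Mmp9 were dropped where at least 1 TPM was asked of every library. In the 9 other settings that kept them, the call against NSG held 9 times for Ltf, 8 for Retnlg and 2 for Mmp9. The Retnlg difference from NSG, 5.26, became 6.80 with a pseudocount of 0.1. Lcn2, Cd177, Cxcr2, Wfdc21 and Ifitm6 were called against WT alone, with differences of 0.80 to 1.51, and whether the 2 comparisons differ was not tested. The calls of these genes against WT held in 4 (Cd177) to 10 (Wfdc21) of the 12 omissions of a library. Chil3, a chitinase-like protein and the most abundant of the list, was not called, with a log2 difference of 1.46 ± 0.45 (limma, adjusted p = 0.0957), and Rag2-/- replicate 4 held 1636 TPM of it against 6401 to 8732 TPM in the other 3. Ly6g, the surface marker of mature neutrophils, was at 1.41 to 5.86 TPM in Rag2-/- libraries and at 0.375 to 3.06 TPM elsewhere and was not called either. Without Rag2-/- replicate 4, 12 genes of the list were called against WT and 11 against NSG. Without WT replicate 2 or Rag2-/- replicate 2, 6 were called against WT, without Rag2-/- replicate 3, 7 were, and without Rag2-/- replicate 1, 2 or 3 or NSG replicate 2, 3 were called against NSG.

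The summed level of the neutrophil list was 2026 to 3929 TPM in WT, 3232 to 11700 TPM in Rag2-/- and 2683 to 3917 TPM in NSG libraries, and none of its genes was at 0 in all libraries. Chil3, which was not called, averaged 1950, 6070 and 2000 TPM in WT, Rag2-/- and NSG, so it makes up most of this sum. The macrophage list summed to 115 to 135 TPM in WT, 138 to 152 TPM in Rag2-/- and 89.0 to 143 TPM in NSG, with 1 of 8 tested genes called higher against WT (C1qc, log2 difference 1.28), where 1.14% of all genes were. C1qa (log2 differences of 1.53 against WT and 1.72 against NSG) and C1qb (1.31 and 1.75), which encode the other chains of the same complement protein, were not called, but all Rag2-/- libraries lay above all others for both, as for 10.2% of all genes against WT and 4.34% against NSG. The median of the 8 was 0.47 against WT and 0.75 against NSG. The monocyte list summed to 2005 to 2118, 1537 to 1895 and 1426 to 1962 TPM. Of its 8 genes, all tested, 1 was called lower against WT (Ly6c2, -0.91), where 0.326% of all genes were. Of 9 progenitor genes, 4 had a log2 difference above 0 against WT, the median was -0.15, and 1 was called lower, beside the same 0.326%. Mpo, the myeloperoxidase of primary granules, was lower in Rag2-/- than in WT libraries by limma (-2.13 ± 0.39, adjusted p = 0.0189), at 121, 102, 70.1 and 287 TPM against 508 to 593 TPM. Against NSG, the Mpo difference of -1.69 ± 0.39 was not called (limma, adjusted p = 0.0968), and the libraries overlapped. The T and NK cell list summed to 5.57 to 8.04 TPM in WT, 3.66 to 10.1 TPM in Rag2-/- and 2.40 to 8.56 TPM in NSG, of which Nkg7 averaged 5.93, 3.49 and 5.19 TPM. Nkg7, the 1 gene of this list tested, had log2 differences of -0.72 against WT and -0.39 against NSG and was not called. The NK cell genes Gzma and Ncr1 belong to the 9 of 10 list genes that were too low to be tested. Both were at 0 in all WT libraries, and they were at 0.624 to 2.39 and 0.108 to 0.531 TPM in the Rag2-/- libraries. In NSG, Gzma was at 1.67 TPM in 1 library and 0 in the others, and Ncr1 was at 0 in all. Gzma and Ncr1 are picks from a list whose sums overlapped between hosts. Of all genes tested, 10.2% were higher in Rag2-/- than in WT without overlap. Values this low rest on few reads, as 1 read per kb of exon gives 0.0832 to 0.204 TPM in the Rag2-/- libraries. In these bulk samples, more cells of a type and more RNA per cell cannot be told apart, and the part of these markers in the levels of S100a8 and S100a9 was not tested.

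Receptors and signal carriers for S100 proteins were the next group, with 13 genes listed and 10 tested. By limma, 1 was called higher in Rag2-/- than in WT libraries and none lower, against 1.14% and 0.326% of all genes, and 0 were called in the other 2 comparisons. An unadjusted limma p-value below 0.05 was found for 6 (Rag2-/- against WT), 5 (Rag2-/- against NSG) and 1 (NSG against WT) of the 10. Among all 15026 genes, 3146, 1888 and 1377 had such a p-value. The one called was Cd33, a sialic-acid-binding inhibitory receptor of myeloid cells for which S100A9 is a described ligand. It was at 559, 469, 513 and 582 TPM in WT, at 669, 807, 873 and 853 TPM in Rag2-/- and at 566, 590, 769 and 547 TPM in NSG libraries. Rag2-/- libraries lay above WT but overlapped NSG, and the log2 difference from WT was 0.59 ± 0.12 (adjusted p = 0.0237). The call was lost without WT replicate 2 (0.53), WT replicate 3 (0.57), Rag2-/- replicate 2 (0.58) or Rag2-/- replicate 3 (0.55).

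The receptors of the list differed in both directions, and none but Cd33 was called. Of the 10 tested, 8 had a log2 difference above 0 against WT, and Bsg and Cd69 had one below 0. Cd69 was at -0.52 ± 0.16 against WT, past the fold limit but not called (limma, adjusted p = 0.0957). Tlr4 averaged 74.4 ± 7.05 TPM in WT, 89.4 ± 3.25 TPM in Rag2-/- and 73.2 ± 3.96 TPM in NSG (SD, n = 4 each), a log2 difference of 0.27 ± 0.07 against WT (limma, adjusted p = 0.0545) that was not called. Ager was at 3.26 ± 0.867, 4.00 ± 0.966 and 4.36 ± 0.996 TPM, with overlapping hosts. Bsg (basigin), an S100A9 receptor and among the most abundant of the list, averaged 636 TPM in WT, 564 TPM in Rag2-/- and 621 TPM in NSG. Its log2 difference of -0.17 ± 0.05 against WT was not called (limma, adjusted p = 0.0796). Nptn (neuroplastin), a receptor for S100A8, differed from WT by 0.37 ± 0.07 (adjusted p = 0.0168), which passes the p-value but not the fold limit. Myd88, the adaptor of TLR4, averaged 139, 149 and 130 TPM in WT, Rag2-/- and NSG and was not called. Median log2 differences of the list were 0.17 against WT and 0.23 against NSG.

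Intracellular partners of the other members numbered 10, of which 6 were tested. Anxa1, the partner of S100A11, was the one called by limma, at 128, 81.1, 102 and 95.4 TPM in WT, at 184, 204, 214 and 161 TPM in Rag2-/- and at 122, 107, 137 and 113 TPM in NSG libraries. The Rag2-/- libraries lay above all others, and the log2 difference from WT was 0.91 ± 0.13 (adjusted p = 0.0068). Against NSG, the difference of 0.66 ± 0.13 was not called (adjusted p = 0.0609), and 1 partner was called there without WT replicate 1, Rag2-/- replicate 4 or NSG replicate 3. Anxa2, the partner of S100A10, averaged 113, 143 and 111 TPM in WT, Rag2-/- and NSG, with a difference from WT of 0.34 ± 0.07 that stayed under the fold limit (adjusted p = 0.0309). Myh9, the heavy chain of non-muscle myosin IIA that S100A4 binds, averaged 257, 248 and 234 TPM, and Cacybp, the partner of S100A6, 180, 168 and 194 TPM, with neither called. Anxa6, another annexin, averaged 141, 164 and 140 TPM and was not called either. The 1 partner called against WT stands beside 1.14% of all genes called higher. By limma, 0 partners were called against NSG and between NSG and WT, where 4 and 1 of the 6, and 1888 and 1377 of all 15026 genes, had an unadjusted p-value below 0.05. Median log2 differences of the list were 0.22 against both WT and NSG.

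Transcription factors known to act on S100a8 and S100a9 or on granulocyte maturation were all expressed, and 0 of 10 were called by limma in any comparison, with 4, 4 and 0 at an unadjusted p-value below 0.05 (Rag2-/- against WT, Rag2-/- against NSG, NSG against WT), where 3146, 1888 and 1377 of all 15026 genes were. Over all genes 1.47%, 0.213% and 0% were called, so nothing particular to these factors is read from the count of 0. By voom on the recovered reads, 0 were called as well. Spi1, which encodes PU.1, averaged 558 ± 15.9 TPM in WT, 623 ± 29.8 TPM in Rag2-/- and 577 ± 7.04 TPM in NSG (SD, n = 4 each), a log2 difference of 0.16 ± 0.04 against WT (adjusted p = 0.0751). Cebpa was at 276 to 302 TPM in WT, 203 to 231 TPM in Rag2-/- and 184 to 308 TPM in NSG libraries, with all WT libraries above all Rag2-/- libraries (-0.36 ± 0.14, adjusted p = 0.157). Cebpe, which drives secondary granule genes, averaged 173, 142 and 171 TPM in WT, Rag2-/- and NSG, Gfi1, a repressor needed for neutrophil maturation, 252, 232 and 252 TPM, and Stat3 132, 143 and 123 TPM. The median log2 difference of the 10 factors was 0.05 against WT and 0.06 against NSG.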

How the data were processed

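RNA-seq libraries of MLL-AF9 cells (12, with 4 per host by the labels) were analysed from the deposited TPM. The authors aligned paired-end reads to mm10 with HISAT2 on Galaxy, took gene counts and converted them to TPM. The counting tool and annotation are not given in the sources used here. Symbols and exon lengths came from GENCODE M21, which matched 55141 of 55401 genes.

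TPM multiplied by exon length gave whole multiples of a smallest step for 98.5% to 98.9% of genes under 20 reads (within 0.02). This step was taken as 1 read, giving 16.0 to 42.8 (in units of 1000000 reads) per library. As 65.3% to 68.4% of the whole values were even, the depth in read pairs may be lower. Reads limit precision by counting error only.

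Values were analysed as log2(TPM + 1). Genes averaging 1 TPM or more (15026) were fitted over all 12 libraries with limma 3.58.1 (lmFit, contrasts.fit, eBayes with trend) in R 4.3.3, with Benjamini-Hochberg adjustment per comparison. Calls needed an adjusted p-value under 0.05 with a log2 fold change over 0.5 in size. No covariate was used. Fold changes understate the change of low genes on this scale. Python 3.11.15, numpy 2.4.6, pandas 2.3.3 and matplotlib 3.10.9 did the rest. The fit was tested on simulated data.

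The members and lists were chosen with earlier results of these data known. Named were all members, called and abundant genes of the lists (receptors, partners, regulators, neutrophil), marker genes beside them, and the 5 genes most like S100a8 and S100a9, of which 1 is not reported here. Receptors were Tlr4, Ly96, Cd14, Myd88, Irak4, Ager, Cd36, Bsg, Alcam, Nptn, Mcam, Cd69 and Cd33, and partners were Anxa1, Anxa2, Anxa6, Anxa11, Ahnak, Myh9, Cacybp, Il1a, Fgf1 and Syt1. Regulators were Cebpa, Cebpb, Cebpd, Cebpe, Spi1, Stat3, Hif1a, Rela, Nfkb1 and Gfi1, and neutrophil genes were Ly6g, Camp, Ngp, Ltf, Lcn2, Retnlg, Mmp8, Mmp9, Cd177, Cxcr2, Wfdc21, Ifitm6 and Chil3. Outside this rule, Ly6g, Nptn, Tlr4, Ager, Cd69, Anxa2, Cebpe and Stat3 were named after their values were seen. Replicate numbers are shared between hosts but did not pair the libraries. Alternatives were other pseudocounts, filters, scalings and fits, a replicate block, voom on the recovered reads (15001 genes) and each library left out in turn.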

Additional observations from a re-analysis of the deposited data

Results flagged for a closer look

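Within the 4 Rag2-/- libraries, replicate 4 was far below the others for S100a8 on the log2(TPM + 1) scale. The gap from replicate 4 (107 TPM) to the nearest library (360 TPM), divided by the range of the group, was 0.872, above Dixon's critical value for 4 samples. The sum of the members on the log2 scale had its lowest value in the same library, also past that value, with a gap of 0.934 of the range, from 1950 TPM to 2646 TPM. Of 39 groups examined, 2 passed it, and 1.95 were expected by chance. The 2 are not independent, since the sum holds S100a8. Replicate 4 was also the deepest library, at 42.8 in units of 1000000 reads, and had the highest Mpo level of the Rag2-/- libraries (287 TPM) and the lowest Chil3 level (1636 TPM).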

How the results depend on the processing

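S100a8 and S100a9 were singled out by their host differences, so their calls across settings describe the processing and support nothing. S100a9 was called in both comparisons, and S100a8 against WT, under the 10 other settings and 12 omissions of a library, and S100a8 against NSG under 6 of 10 settings. The other settings changed these counts of calls. Against WT, the 221 genes called became 114 with all genes above 0 kept, 355 with the 8 libraries of the comparison alone and 420 with no fold limit, the receptors called became 0 with all genes above 0 kept and 2 with no fold limit and by voom, and the partners called became 2 with no fold limit. Against NSG, the 32 genes called became 14 with a pseudocount of 0.1, 7 with all genes above 0 kept, 19 with quantile normalization, 11 with median-ratio scaling, 18 without a trend, 6 with the 8 libraries alone and 59 by voom. The S100 members called against NSG became 1 with all genes above 0 kept, without a trend and with the 8 libraries alone, the partners became 1 by voom, and the neutrophil genes fell from 6 to 3 with all genes above 0 kept, with at least 1 TPM asked of every library and with the 8 libraries alone. Between NSG and WT, the count of 0 became 2 with all genes above 0 kept and 1 by voom. The cause of these shifts was not tested.

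Leaving out 1 library gave 47 to 326 genes called against WT, 4 to 90 against NSG and 0 to 2 between NSG and WT. For the S100 members, the counts were 2 to 3 against WT and 1 to 3 against NSG, for receptors 0 to 1 against WT, for partners 1 to 1 against WT and 0 to 1 against NSG, and for neutrophil genes 6 to 12 against WT and 3 to 11 against NSG.

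The replicate numbers are shared between hosts, but deviations of same-numbered libraries did not go together (r from -0.091 to 0.032, above 0.1 in 0 of 12 pairs, with 0 of 12 libraries closest to its own number). With the replicate block, 2 receptors were called against WT, and 5 genes and 1 S100 member against NSG, where S100a8 was not called. Depth limits S100a6, S100a10 and S100a4 most, which rest on at most 225, 54 and 0 reads per library.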
